A study of Mus musculus with 8 samples.

Results

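Genes of the Wnt pathway and of planar cell polarity were followed in mouse haematopoietic stem and progenitor cells (HSPCs) in which Pcgf1, a subunit of the Polycomb complex PRC1.1, was knocked down. The group holds 38 listed mouse genes, taken by symbol from a list that was proposed with earlier results of these arrays known. A probe was matched to 37 of them, and 29 were measured well enough to be tested, among 17293 genes tested in all. Marrow was taken from 4 Runx1 Δ/Δ mice of mixed C57Bl/6 and 129SvJ strain. The age of the animals and the way in which Runx1 was deleted are not given in the sources used here. After lineage depletion it was grown for 2 days with SCF, Flt3 ligand, IL-11 and IL-3. From each mouse, 1 culture received a retroviral control shRNA and 1 a Pcgf1 shRNA, followed by 36 h of puromycin, so both groups share the Runx1 genotype, the cytokines, the virus and the selection. RNA of the 8 cultures was read on 8 one-colour Agilent arrays, 4 per group.

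Wnt proteins are secreted lipid-modified ligands that bind Frizzled receptors. In the canonical branch, Frizzled and its co-receptor Lrp5 or Lrp6 act through Dishevelled to shut down a complex of Axin, Apc and Gsk3 that otherwise destroys beta-catenin, which then works with TCF and LEF factors in the nucleus. In the planar cell polarity branch, Frizzled and Dishevelled act with the membrane proteins Celsr and Vangl and with Prickle to orient cells within a tissue, without beta-catenin. In blood formation, Frizzled8 and Flamingo, a member of the Celsr family, have been described in the maintenance of quiescent stem cells. This background does not refer to Celsr1 in particular.

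The signal of each spot is given as log2, with the 75th percentile of its array set to 0, so a difference of 1 is a doubling and negative values lie below that percentile. On the 8 arrays 54.8% to 62.0% of the spots were well above background, and the lowest such log2 signal lay between −5.94 and −5.22. The knockdown was seen in the Pcgf1 probe, which changed by −1.36 (SE 0.12, adjusted p 0.0197 by limma). Both arrays of mouse 4 lay apart from the others on the first principal component (38.3 and 44.8, against −30.1 to 2.96), so results are also given without this mouse. All 10 progenitor markers checked, among them Kit and Cd34, were measured. The same held for all matched erythroid (9), monocyte (9), mast cell (8) and megakaryocyte (7) markers, so detection alone does not identify progenitors.

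Celsr1 and Vangl2, which both encode core membrane proteins of planar cell polarity, rose with the Pcgf1 shRNA, 1.87-fold and 2.31-fold, and 0 of the 29 members fell. These 2 rises are 6.90% of the members tested. Over all genes tested 0.596% rose and 0.168% fell by the same rule (limma, adjusted p under 0.05 over all genes, no block). With the mouse as a block, which compares the 2 cultures of each animal, 7 members rose (24.1%, against 2.91% of all genes) and 0 fell (against 2.42%). Beside Celsr1 and Vangl2 these were the receptor genes Fzd4, Fzd7 and Fzd8, the co-receptor gene Lrp5 and the transcription factor gene Tcf7l1. At an unadjusted p under 0.05, limma gave 9 members higher and 0 lower without the block, and 12 higher and 2 lower with it. Over all genes, both directions together, 2101 of 17293 had such a p without the block and 4069 of 17292 with it. Because of how the list was proposed, these shares describe it and do not test it.

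The same direction was seen in every mouse for 15 members. Of the 29, 12 were higher with the Pcgf1 shRNA in 4 of 4 mice, where 15.5% of all genes were, and 3 were lower in 4 of 4, where 16.2% of all genes were. All 4 values with the Pcgf1 shRNA lay above all 4 control values for 6 members, Celsr1, Vangl2, Fzd8, Lrp5, Tcf7l1 and Dvl1, against 4.26% of all genes. The reverse was seen for 0 members, against 2.91% of all genes. The median change of the 29 members was 0.12, with 0.12, 0.18, 0.23 and 0.10 in mice 1 to 4, and that of all genes was 0.00.

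**Figure D1:**
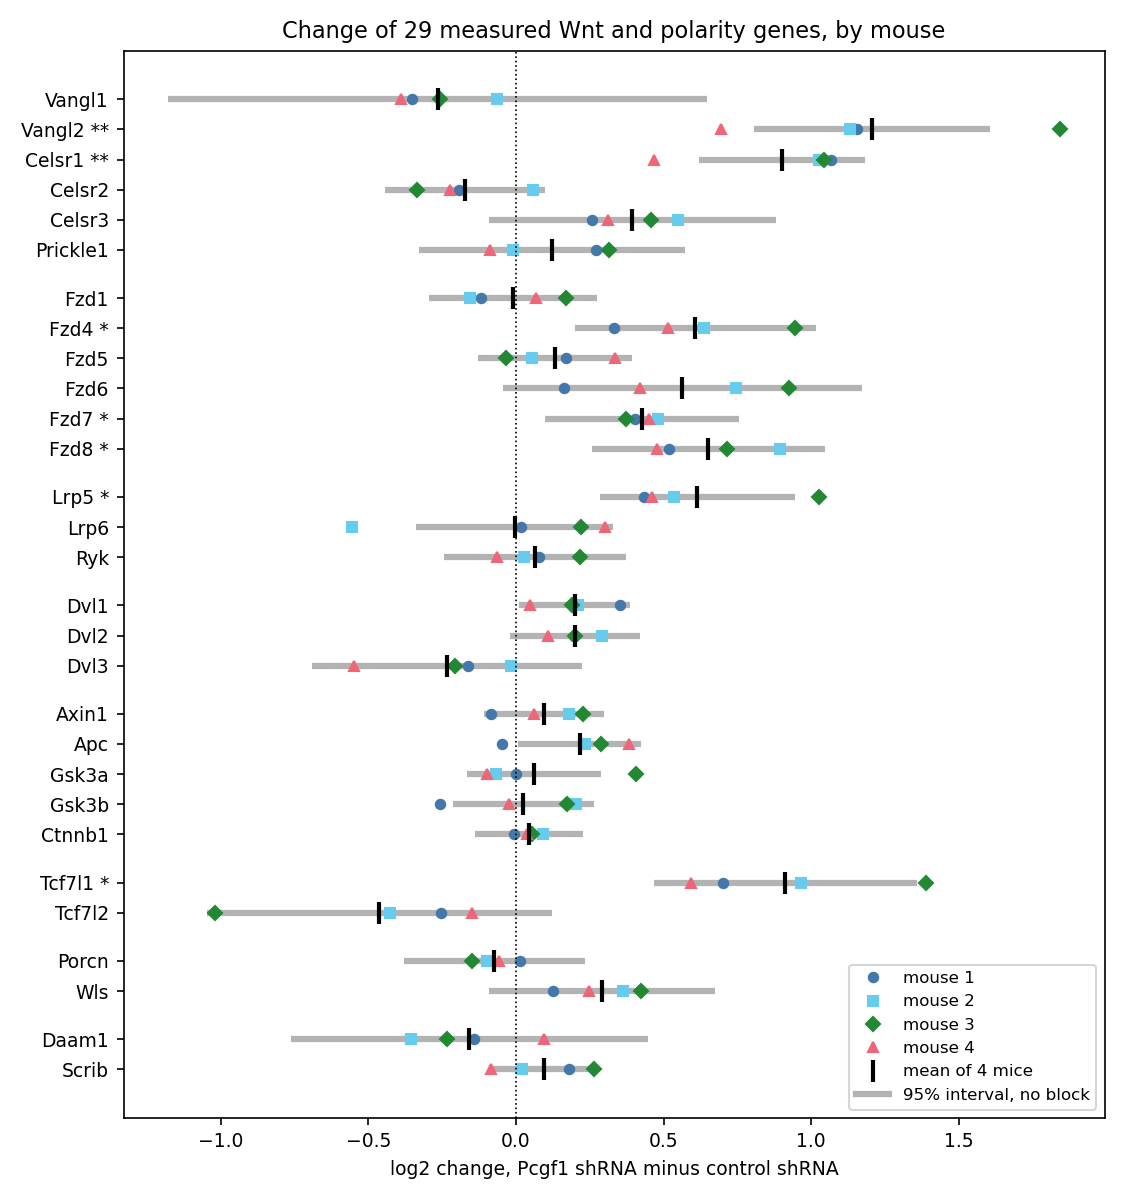
Log2 change (Pcgf1 shRNA minus control shRNA) of the 29 tested members, grouped by role; coloured symbols are the 4 mice, black ticks the mean, grey bars the 95% interval without a block, ** marks adjusted p under 0.05 without and with the block and * with the block only. Vangl2 and Celsr1 lie farthest to the right among the polarity genes. Of 6 Frizzled genes 4 are higher in every mouse, against 15.5% of all genes, and the destruction complex genes lie near 0.

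PRC1.1 is recruited to CpG-rich DNA through its subunit Kdm2b, so the sequences just upstream of the genes that rose are shown with every CG dinucleotide in capitals. RefSeq promoter windows (GRCm38.p6) were matched for 24 of the 38 members, among them 4 of the 7 genes that rose with the block. The 250 bases before the annotated start, 5′ to 3′ on the strand of the gene, are:
Vangl2 (chr1:172027296-172027545, minus strand): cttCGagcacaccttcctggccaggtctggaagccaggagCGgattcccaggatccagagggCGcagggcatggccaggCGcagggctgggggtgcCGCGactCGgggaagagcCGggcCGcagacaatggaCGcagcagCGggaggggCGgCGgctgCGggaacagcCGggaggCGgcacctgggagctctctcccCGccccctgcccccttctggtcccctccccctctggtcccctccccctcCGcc
Tcf7l1 (chr6:72789046-72789295, minus strand): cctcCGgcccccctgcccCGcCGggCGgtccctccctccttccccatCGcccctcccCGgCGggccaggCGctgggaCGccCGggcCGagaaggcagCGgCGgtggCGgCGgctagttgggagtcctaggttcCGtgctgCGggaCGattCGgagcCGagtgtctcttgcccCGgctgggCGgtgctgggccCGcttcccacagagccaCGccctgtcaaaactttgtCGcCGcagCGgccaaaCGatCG
Fzd4 (chr7:89404116-89404365, plus strand): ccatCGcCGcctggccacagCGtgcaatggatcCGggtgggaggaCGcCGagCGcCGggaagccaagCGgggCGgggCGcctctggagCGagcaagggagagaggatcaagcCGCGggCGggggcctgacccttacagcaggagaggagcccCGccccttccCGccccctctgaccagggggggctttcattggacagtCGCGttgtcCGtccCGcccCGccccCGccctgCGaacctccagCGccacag
Fzd7 (chr1:59481897-59482146, plus strand): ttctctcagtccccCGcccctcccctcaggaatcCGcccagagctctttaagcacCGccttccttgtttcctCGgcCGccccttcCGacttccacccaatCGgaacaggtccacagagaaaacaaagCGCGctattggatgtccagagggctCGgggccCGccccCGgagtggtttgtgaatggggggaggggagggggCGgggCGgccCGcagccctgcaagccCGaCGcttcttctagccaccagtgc

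The 4 windows hold 18 (Vangl2), 29 (Tcf7l1), 25 (Fzd4) and 17 (Fzd7) CG dinucleotides, where the median of all 32851 mouse windows of this length is 6. Many windows are as rich: 21.7%, 6.78%, 10.7% and 23.5% of all windows hold at least as many as these 4. Member genes that did not pass had windows just as rich, with 35 and 43 CG in the 2 windows of Ctnnb1 and 32 in that of Celsr2. The 34 windows of all 24 matched members had a median of 16.5. The letters ATCAAAG, bound by TCF and LEF factors, were found on either strand in 1 of the 34 member windows (Prickle2) and in 3.21% of all windows. TGTGGT, the core bound by Runx factors, was found in 0 of the 34 member windows and in 14.0% of all windows. Member windows were richer in G and C (median 65.2%, against 52.4% over all windows), and some windows of Lef1 and of Ctnnb1 overlap. The part of base composition in these counts was not tested.

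Celsr1 encodes an adhesion receptor of the cadherin superfamily that links the polarity complexes of neighbouring cells. Its log2 signals were 0.76, 0.66, 0.78 and 0.86 on the control arrays of mice 1 to 4 and 1.82, 1.68, 1.82 and 1.33 with the Pcgf1 shRNA. The groups did not overlap, and the smallest rise was that of mouse 4, which had the highest control value and the lowest value with the Pcgf1 shRNA. The mean rose from 0.76 ± 0.08 to 1.66 ± 0.23 (SD, n = 4 each), a log2 change of 0.90 (SE 0.12, 95% interval 0.62 to 1.18, adjusted p 0.0251 by limma, 0.0223 with the block). By slide, mice 1 and 2 gave a change of 1.05 and mice 3 and 4 one of 0.75 (adjusted p 0.0340 with slide as a block). Without mouse 4 the change was 1.04 (adjusted p 0.0184). Without mouse 1, 2 or 3 its size held at 0.84, 0.86 and 0.85, but the call was lost (adjusted p 0.181, 0.352 and 0.212), and over all genes these 3 fits called 1, 0 and 0 (1671, 1000 and 1088 at an unadjusted p under 0.05, limma).

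Vangl2 encodes a membrane protein that recruits Prickle and stands opposite Frizzled and Dishevelled in polarised cells. Its log2 signals were −3.95, −4.13, −4.40 and −3.60 on the control arrays of mice 1 to 4 and −2.80, −2.99, −2.55 and −2.91 with the Pcgf1 shRNA. All 4 pairs rose without overlap between the groups, most in mouse 3 and least in mouse 4. The mean rose from −4.02 ± 0.33 to −2.81 ± 0.19, a log2 change of 1.21 (SE 0.17, 95% interval 0.81 to 1.61, adjusted p 0.0270 by limma, 0.0280 with the block). By slide it was 1.14 (mice 1 and 2) and 1.27 (mice 3 and 4), and the adjusted p with slide as a block was 0.0384. Without mouse 4 it was 1.38 (adjusted p 0.0304), and without mouse 1, 2 or 3 the change lay between 0.99 and 1.23 with no call (adjusted p 0.184, 0.352 and 0.175). The probe was dim, and with normexp background correction, which adds an offset of 50 to every spot and so compresses low signals, the change was 0.49 (adjusted p 0.110, or 0.0321 with the block).

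The paralogues of these 2 genes gave other values. Vangl1, the close relative of Vangl2, ran from −4.99 to −3.62 on the control arrays and from −5.38 to −3.97 with the Pcgf1 shRNA. The groups overlapped, and mouse 4 was lowest in both. Vangl1 was lower in 4 of 4 mice, with a mean change of −0.27 (95% interval −1.18 to 0.65, adjusted p 0.843, or 0.125 with the block). Celsr2 changed by −0.17 (95% interval −0.44 to 0.10, adjusted p 0.614), and its other 2 probes by −0.12 and 0.03. Celsr3 was higher in 4 of 4 mice, at −2.55, −2.89, −2.43 and −3.14 on the control arrays of mice 1 to 4 and −2.30, −2.34, −1.97 and −2.82 with the Pcgf1 shRNA. Its change of 0.39 (95% interval −0.09 to 0.88) did not pass (adjusted p 0.520, and just above the threshold of 0.05 with the block), and a second, dimmer probe gave 0.13. Prickle1, the cytoplasmic partner of Vangl proteins, changed by 0.12 (95% interval −0.33 to 0.57), higher in 2 of 4 mice. Prickle2 was above background on 0 of 8 arrays.

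**Figure D2:**
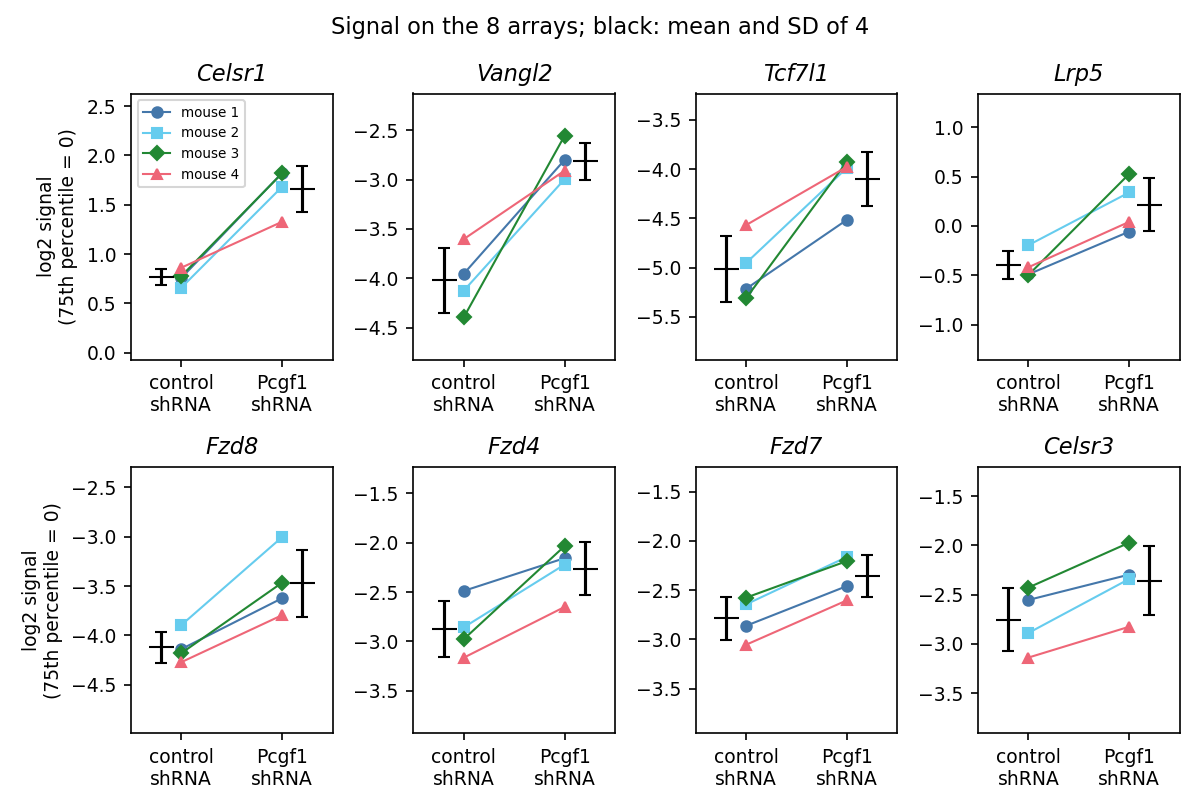
Log2 signal (75th percentile of the array = 0) of 8 members on the 8 arrays; lines join the 2 cultures of a mouse, and black marks are the mean and SD of the 4 arrays of a group; each panel has its own level but the same span. All lines rise, and the Celsr1 and Vangl2 groups do not overlap, whereas those of Fzd4, Fzd7 and Celsr3 do.

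Frizzled genes encode the Wnt receptors shared by both branches. Of 9 listed, 6 were tested, 5 of them had a positive change, and 4 were higher in 4 of 4 mice, where 15.5% of all genes were. With the block Fzd4, Fzd7 and Fzd8 rose, where 2.91% of all genes did. Without it limma called 0 of the 6, though the same 3 genes had an unadjusted p under 0.05, as did 2101 of all 17293 genes. As for the whole list, these counts describe the Frizzled genes and do not test them.

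Fzd8 stood at −4.14, −3.90, −4.18 and −4.27 on the control arrays of mice 1 to 4 and at −3.62, −3.00, −3.46 and −3.79 with the Pcgf1 shRNA. All values of the second group lay above all values of the first, and mouse 2 was highest in both. The log2 change was 0.65 (1.57-fold, SE 0.17, adjusted p 0.164 by limma, 0.0256 with the block). Fzd4, which also serves as the receptor of the eye growth factor Norrin, stood at −2.49, −2.86, −2.98 and −3.17 in the controls and at −2.16, −2.22, −2.03 and −2.65 with the Pcgf1 shRNA. The groups overlapped, since the control of mouse 1 lay above the value of mouse 4 with the Pcgf1 shRNA, but each mouse rose. Its change was 0.61 (1.52-fold, SE 0.18, adjusted p 0.216, 0.0412 with the block).

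Fzd7, a receptor used in embryonic stem cells and early embryos, stood at −2.86, −2.64, −2.58 and −3.05 in the controls and at −2.46, −2.16, −2.20 and −2.60 with the Pcgf1 shRNA. The shift was the most even of the 3 across mice, 0.40, 0.48, 0.37 and 0.45, and the groups overlapped narrowly. The mean change was 0.43 (1.34-fold, SE 0.14, adjusted p 0.273, 0.0292 with the block); a second Fzd7 probe was not above background on any of the 8 arrays. Fzd6, a receptor used chiefly in polarity signalling, was higher in 4 of 4 mice at 0.56 (95% interval −0.04 to 1.17) and did not pass (adjusted p 0.455, or 0.0747 with the block). Fzd5 changed by 0.13 (95% interval −0.13 to 0.39) and Fzd1 by −0.01 (95% interval −0.29 to 0.27); the sign of both depended on the background correction or scaling. Fzd2 was above background on 2 of 4 arrays in each group and Fzd3 on 0 of 4 control arrays and 1 of 4 with the Pcgf1 shRNA, so neither was tested, and Fzd9 had no matched probe.

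Lrp5 encodes a co-receptor that canonical Wnt signalling needs beside Frizzled. Its log2 signals were −0.49, −0.20, −0.50 and −0.42 in the controls and −0.06, 0.34, 0.53 and 0.04 with the Pcgf1 shRNA. The groups did not overlap, and mouse 3 rose most. The change was 0.61 (1.53-fold, SE 0.14, 95% interval 0.28 to 0.94, adjusted p 0.115 by limma, 0.0456 with the block). Its paralogue Lrp6 changed by −0.01 (95% interval −0.34 to 0.33), with −0.56 in mouse 2 and 0.30 in mouse 4 at the extremes. The Lrp6 probe was dim, with a mean of −4.08 in both groups, which limits this value. Ryk, which encodes an atypical Wnt receptor of the kinase family, changed by 0.06 (95% interval −0.24 to 0.37).

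Tcf7l1 encodes a TCF factor that acts mainly as a repressor of Wnt targets. Its probe read −5.21, −4.95, −5.31 and −4.57 in the controls and −4.51, −3.99, −3.92 and −3.98 with the Pcgf1 shRNA. The control values lay close to the lowest signals called above background, and all 4 values with the Pcgf1 shRNA lay higher. The log2 change was 0.91 (1.88-fold, SE 0.19, 95% interval 0.47 to 1.36, adjusted p 0.0899 by limma, 0.0294 with the block). A second Tcf7l1 probe was above background on 0 of 8 arrays. Tcf7l2, which encodes a TCF factor that can activate targets, was lower in 4 of 4 mice, at −0.47, −0.48, 0.19 and −1.11 in the controls and −0.72, −0.91, −0.83 and −1.26 with the Pcgf1 shRNA. Its change of −0.46 (95% interval −1.05 to 0.12) did not pass (adjusted p 0.529, or 0.144 with the block), and its other 2 probes gave −0.24 and −0.53. Lef1 was above background on 0 of 8 arrays.

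The 5 rises called only with the block depended on the setting. With the block and quantile normalization, Fzd7 (0.46, adjusted p 0.0231), Fzd8 (0.73, 0.0363) and Lrp5 (0.61, 0.0469) passed, while Fzd4 (0.65, 0.0548) and Tcf7l1 (1.02, 0.0520) did not. With the block and normexp correction, Lrp5 (0.53, adjusted p 0.0192) and Fzd4 (0.37, 0.0287) passed, while Fzd8 (0.24, 0.114), Fzd7 (0.18, 0.192) and Tcf7l1 (0.11, 0.445) did not. Lrp5, Celsr1 and Vangl2 thus passed in all 3 fits with the block that used all 4 mice, Lrp5 close to the threshold without normexp (adjusted p 0.0456 and 0.0469). Lrp5 passed in no fit with the block that left out a mouse (adjusted p 0.0741 to 0.165 by limma). Without mouse 4 and without the block, the changes were 1.02 for Tcf7l1, 0.71 for Fzd8, 0.67 for Lrp5, 0.64 for Fzd4 and 0.42 for Fzd7. With the block and 3 mice, 0 members passed without mouse 1 or mouse 2, Tcf7l1 and Vangl2 passed without mouse 3, and Celsr1 without mouse 4. At an unadjusted p under 0.05 limma gave 10 to 14 members in these fits, and 2435 to 4762 of all genes.

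**Figure D3:**
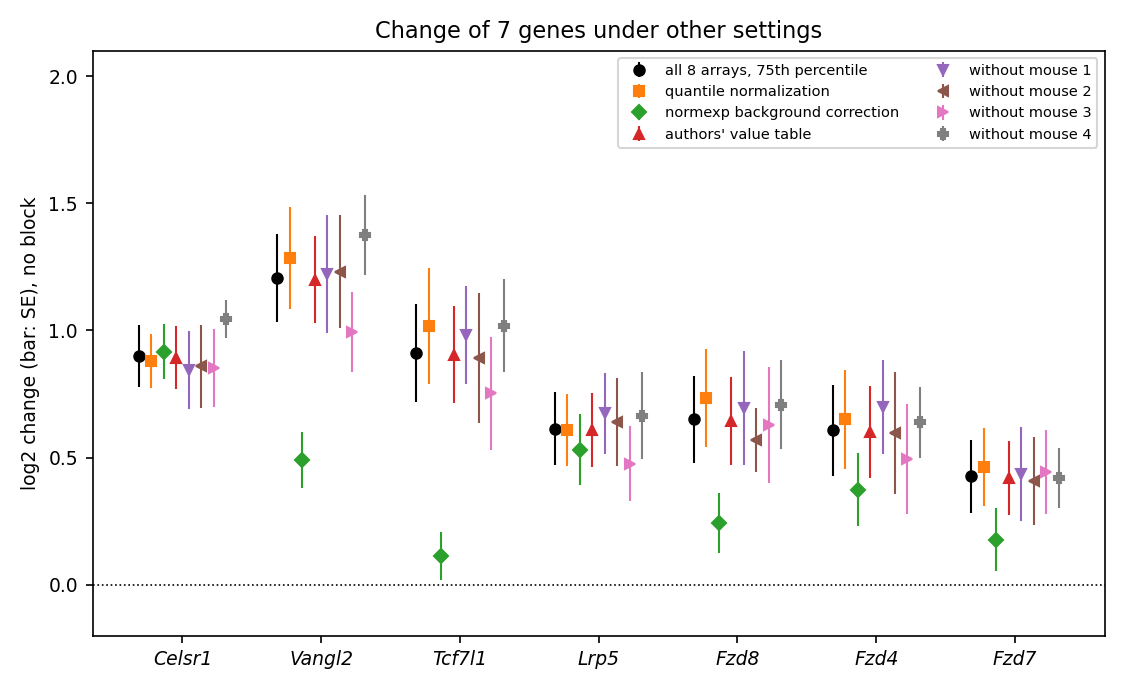
Log2 change without a block (bar: SE) of the 7 members that rose in the fit with the block, under other scalings and with each mouse left out. All values are above 0; normexp correction lowers the dim probes of Vangl2 (0.49) and Tcf7l1 (0.11) most and leaves Celsr1 at 0.92.

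Whether paralogues differed was tested on their difference, after their values were seen, in 5 pairs, by exact permutation of the 8 arrays (two-sided, 4 against 4). The change of Vangl2 exceeded that of Vangl1 by 1.47 ± 0.46 (mean ± SD over 4 mice; exact permutation p 0.0857). The change of Celsr1 exceeded that of Celsr2 by 1.07 ± 0.31 (exact permutation p 0.0286, the smallest 4 against 4 allows) and that of Celsr3 by 0.51 ± 0.27 (exact permutation p 0.0571). Lrp5 exceeded Lrp6 by 0.62 ± 0.41 (exact permutation p 0.0286) and Tcf7l1 exceeded Tcf7l2 by 1.37 ± 0.74 (exact permutation p 0.0571). Each difference had the same sign in 4 of 4 mice. Adjusted over the 5 pairs by Benjamini-Hochberg, the exact permutation p values were 0.0714 for 4 pairs and 0.0857 for the Vangl pair, so no pair passed. A permutation within mice, which keeps the pairing and was added later, gave an exact p of 0.125 for each of the 5 pairs, the smallest that 4 mice allow. Neither result shows that the paralogues changed alike.

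No tested member among the Dishevelled genes, the destruction complex, beta-catenin, the secretion genes and the effectors Scrib and Daam1 passed with or without the block. Of the 3 Dishevelled genes, whose proteins pass the receptor signal on in both branches, Dvl1 and Dvl2 were higher in 4 of 4 mice by 0.20 each (adjusted p 0.385 and 0.464, or 0.197 and 0.157 with the block). Dvl1 ran from 1.71 to 1.77 on the control arrays and from 1.77 to 2.07 with the Pcgf1 shRNA, so its groups did not overlap, by a narrow margin. A second, dimmer Dvl1 probe gave 0.12 and was higher in each mouse, but its groups overlapped (−1.44 to −1.16 and −1.23 to −1.08). Dvl3 was lower in 4 of 4 mice, with changes of −0.16, −0.02, −0.21 and −0.55 in mice 1 to 4, and did not pass (mean change −0.23, adjusted p 0.691).

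Beta-catenin itself, encoded by Ctnnb1, stood between 2.73 and 2.95 in the controls and between 2.82 and 2.96 with the Pcgf1 shRNA, with a change of 0.04 (95% interval −0.14 to 0.23). In the destruction complex, the change was 0.09 for Axin1 (95% interval −0.11 to 0.30), 0.06 for the kinase gene Gsk3a (−0.17 to 0.29), 0.02 for Gsk3b (−0.21 to 0.26) and 0.22 for Apc (0.01 to 0.42, adjusted p 0.397, higher in 3 of 4 mice). The other passing Apc probes gave 0.23 and −0.08, and the mean of its passing probes changed by 0.12. For the machinery that makes Wnt proteins, Wls, which carries Wnts to the cell surface, was higher in 4 of 4 mice by 0.29 (adjusted p 0.547, or 0.0959 with the block), and Porcn, which attaches their lipid, changed by −0.07. The polarity effectors Scrib, a scaffold at cell junctions, and Daam1, a formin that binds Dishevelled, changed by 0.09 and −0.16 (adjusted p 0.697 and 0.865).

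Several classical products of active Wnt signalling were not detected. Axin2, Nkd1 and Lef1, which beta-catenin induces in many tissues, were above background on 0 of 8 arrays each. The ligand gene Wnt5a, which drives the polarity branch, was above background on 0 of 8 arrays, and Wnt10a on 3 of 4 control arrays and 1 of 4 with the Pcgf1 shRNA. The mean Wnt10a signal was −5.81 in the controls and −5.77 with the Pcgf1 shRNA, so these counts do not show a fall. Each of these genes has 1 probe here, so a probe that works poorly and an absent transcript cannot be told apart.

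**Figure D4:**
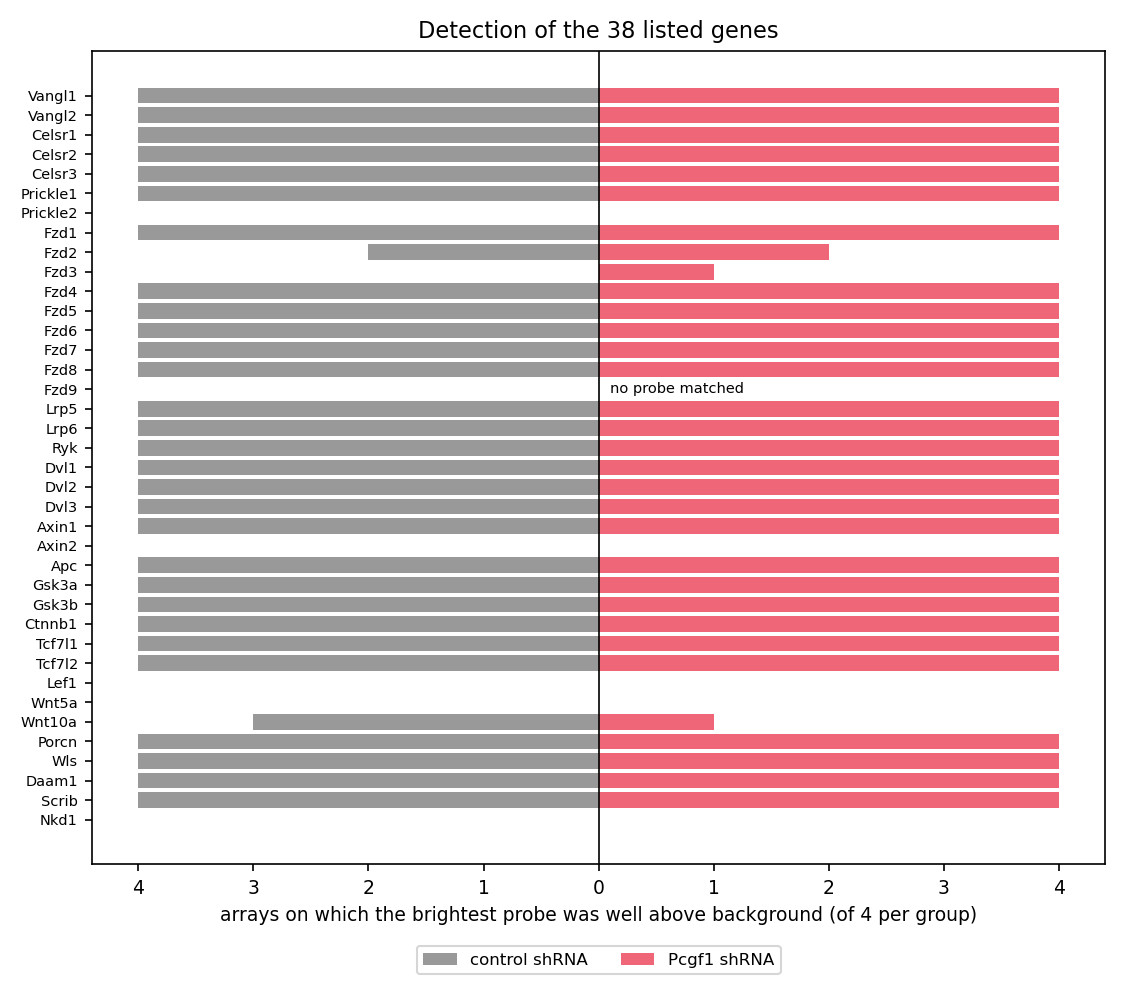
Number of arrays, of 4 per group, on which the brightest probe of each of the 38 listed genes was well above background (left, control shRNA; right, Pcgf1 shRNA). Of the 38, 29 reach 4 in at least 1 group, Prickle2, Axin2, Lef1, Wnt5a and Nkd1 are at 0 in both, and Fzd9 has no matched probe.

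Further genes of the pathway were counted in 8 lists that were likewise drawn up with earlier results of these arrays known. The list of beta-catenin and TCF targets also holds the members Axin2, Nkd1, Lef1 and Tcf7l2. Without the block limma called 0 genes in all 8 lists, while counts at an unadjusted p under 0.05 ran from 0 to 4 higher and from 0 to 4 lower per list. Of all 17293 genes, 2101 had such a p in either direction. Of 28 tested genes of the destruction complex and cytoplasmic regulators, 1 rose and 1 fell with the block, where 2.91% of all genes rose and 2.42% fell. Cxxc5, which encodes a Dishevelled-binding inhibitor, changed by 0.53 (adjusted p 0.141, 0.0296 with the block). Rnf43, a ubiquitin ligase that removes Frizzled from the cell surface, changed by −0.77 (adjusted p 0.397, 0.0222 with the block).

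Of 15 tested target genes of beta-catenin and TCF, 2 rose and 2 fell with the block, against the same shares of all genes (2.91% and 2.42%). The cyclin gene Ccnd2 (0.49, adjusted p 0.0300 with the block) and the AP-1 gene Fosl1 (0.50, 0.0208) were higher. Rnf43, which is also a target, and the nuclear receptor gene Pparg (−0.95, adjusted p 0.0323 with the block) were lower. The median of these 15, which include the member Tcf7l2, was −0.15. Of the 32 listed targets 11 were above background on 0 arrays, among them the members Axin2, Nkd1 and Lef1.

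Of 24 tested further polarity and effector genes, Dlg3, a scaffold of the Scribble module, was higher with the block (0.46, adjusted p 0.0291), and 0 were lower by the same limma fit (2 lower at an unadjusted p under 0.05). Among 6 tested secreted agonists and antagonists Igfbp4, an IGF-binding protein that also inhibits Wnt receptors, was higher with the block (0.53, adjusted p 0.0398). By this fit 2.91% of all genes rose and 2.42% fell, so 1 rise among 24 polarity genes is near the share of all genes. Of 17 further Wnt ligands 6 were tested, with a median of −0.24; of 9 further receptors 4 were tested, with a median of −0.17; of 28 nuclear effectors 25, with a median of 0.02; and of 20 genes of the calcium branch 19, with a median of −0.10. In these 4 lists limma called 0 genes with the block, and 1 to 4 genes higher and 1 to 3 lower per list had an unadjusted p under 0.05. By the same fit 4069 of all 17292 genes had such a p in either direction.

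Markers of several maturing cell types differed between the same groups. In bulk RNA, fewer cells of a type and less RNA per cell cannot be told apart. The summed signal of the 10 tested markers of maturing neutrophils, in units of the 75th percentile of each array, was 86.9 to 236 on the control arrays and 13.1 to 46.6 with the Pcgf1 shRNA, and 3 of the 10 fell without the block and 8 with it, where 0.168% and 2.42% of all genes fell. For other lineages, the median change was −0.86 over 9 tested erythroid markers (0 fell without the block, 3 with it), −0.52 over 9 monocyte markers (0 and 3), −0.61 over 8 mast cell markers (2 and 4) and −0.29 over 6 B cell markers (0 and 0). At an unadjusted p under 0.05 without the block, limma gave 2 erythroid, 4 monocyte and 2 B cell markers lower. Of all 17293 genes, 2101 had such a p in either direction. The summed signals were 121 to 259 in the controls and 52.4 to 186 with the Pcgf1 shRNA (erythroid), 72.4 to 137 and 68.0 to 105 (monocyte), 42.6 to 65.5 and 36.2 to 50.4 (mast cell), and 2.41 to 2.93 and 1.94 to 2.18 (B cell). Of the B cell markers Ms4a1, Pax5 and Ebf1 were above background on 0 arrays. Over 7 tested megakaryocyte markers the median change was −0.22, with 0.22, −0.39, −0.81 and 0.23 in mice 1 to 4. By limma 0 of them fell, with or without the block. Their summed signal was 65.1 to 121 in the controls and 39.7 to 138 with the Pcgf1 shRNA. The summed signal of the 10 progenitor markers was 59.8 to 68.7 and 72.6 to 95.2, with Cd34 (0.94, adjusted p 0.0251) rising without the block and Cd27 (1.29, 0.0341) with it. The part of these differences in the rises of Celsr1, Vangl2 and the Frizzled genes was not tested.

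Markers of stromal, endothelial and T cells were measured in part. Of 10 stromal markers Col1a1, Col3a1, Pdgfra, Lepr and Dcn were above background on 0 arrays and 3 were tested, of which Pdgfrb was higher with the block (0.69, adjusted p 0.0208), while Col1a2 was at −0.34 and Acta2 at −0.03. Their summed signal was 17.7 to 22.7 in the controls and 17.2 to 22.8 with the Pcgf1 shRNA. Of 10 endothelial markers Cdh5 and Sox18 were above background on 0 arrays, 6 were tested, and their median change was −0.36. Tie1 was higher with the block (0.36, adjusted p 0.0489), while Kdr (−0.53) and Plvap (−0.55) were lower in 4 of 4 mice without passing (adjusted p 0.107 and 0.133 with the block). Their summed signal was 11.04 to 14.5 and 4.95 to 16.9. Of 11 T cell markers Cd3d, Cd3g, Cd8a and Bcl11b were above background on 0 arrays, while Lck (0.91, adjusted p 0.0339 by limma without the block) and Thy1 (0.88, 0.0232 with it) were higher. The other 3 tested were at −0.45 (Cd5, adjusted p 0.0724 with the block), −0.27 (Cd3e, 0.163) and −0.12 (Cd4, 0.450), and the median of the 5 was −0.12. Their summed signal was 2.60 to 3.82 and 3.74 to 6.81. The part of these cells in the results was not tested.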

How the data were processed

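Spots were quantified in Agilent Feature Extraction 10.1, per the submitters' processing notes. The deposited files hold an intensity per spot, background-subtracted and detrended within its array but not scaled between arrays, per the file headers. The deposited value table of the authors holds log2 values centred on the median of each probe. Over 13980 bright probes its differences between arrays followed the spot files with r of at least 0.9999995. The spot files were used, and the value table served as an alternative.

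From the log2 intensity, the 75th percentile over non-control spots was subtracted array by array; 242 non-uniform spots were left out. Of 41174 probes, 24367 were named through RefSeq accessions (GRCm38.p6), and the other 16807 kept their own identifier. A probe had to be well above background on 4 of 4 arrays in 1 group or both, and the brightest such probe stood for its gene. The test was that of limma 3.58.1 (R 4.3.3, two-sided, adjusted by Benjamini-Hochberg across the 17293 genes, threshold 0.05) without a block, and with the mouse as a block for pairing. The pairing comes from the titles, which give 2 cultures per mouse, and with group means removed these correlated with r of 0.44, 0.48, 0.41 and 0.64 across genes. The arrays filled 2 slides, each with both groups. Alternatives were the block, the slide, quantile scaling, normexp on the median spot and background signals (the mean signal was not used here), no filter on dim probes, the mean of a gene's probes, the value table and leaving out each mouse. The procedure was tested on simulated data with spreads taken from these arrays. A log2 change of 0.5 was called for 14.9% of 67 genes without the block and 37.3% with it. A change of 1 was called for 68.7% and 83.6%, and of unchanged genes 0% and 0.0235% were called. A change of moderate size that did not pass is therefore not shown to be absent.

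All 38 members are accounted for; those described in full passed with or without the block, or had the same direction in all mice with an unadjusted p under 0.05, or were above background in 1 group only, or belong to the Vangl, Celsr, Prickle, Frizzled or Dishevelled families. Of each wider list at most the 4 genes with the smallest p that passed were to be named; the remaining members and the marker genes were named after their values were seen. The members, the lists and the pairs of paralogues were chosen with earlier results of these data known. The number of arrays limits the precision.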

Additional observations from a re-analysis of the deposited data

Results flagged for a closer look

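Among 58 groups of 4 values (29 members, 2 groups), 6 had 1 array far from the other 3 by Dixon's test at the 95% level, which chance alone gives in about 1 of 20 groups. With the Pcgf1 shRNA, mouse 4 stood apart for Vangl1 (−5.38, against −4.15 to −3.97), Prickle1 (−0.0877, against −0.52 to −0.49) and Daam1 (1.83, against 0.75 to 0.91). The control array of mouse 4 deviated the same way for these 3 genes, at −4.99, 0.00 and 1.73. Tcf7l1 was low with the Pcgf1 shRNA in mouse 1 (−4.51, against −3.99 to −3.92), Gsk3b was high with it in mouse 3 (−0.97, against −1.09 to −1.07), and Celsr2 was high on the control array of mouse 3 (−2.45, against −2.81 to −2.75).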

How the results depend on the processing

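Of the 29 members tested, 23 kept the sign of their change under all 17 alternatives, 2 of which were chosen after the data were seen (normexp and quantile scaling with the block). The other 6 had changes of at most 0.13. The number of members called was 2 without the block, 7 with the mouse as a replicate block, 1 with normexp correction, 0 without the filter on dim probes (8 at an unadjusted p under 0.05), 4 with normexp and the block, and 5 with quantile scaling and the block. Over all genes these counts were 132, 921, 77, 0 (2199 unadjusted, of 32969 genes), 1231 and 916. With 1 mouse left out, 0 to 2 members and 0 to 363 genes were called without the block, and 0 to 2 members and 0 to 306 genes with it (284, 0, 306 and 145 without mouse 1 to 4; no call for members without mouse 1 or 2 in either fit, nor without mouse 3 when no block was used).

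Signs turned as follows, each with the same value with and without the replicate block. With quantile scaling Fzd1 was 0.0663, Lrp6 0.0878 and Porcn 0.0352. With normexp Fzd5 was −0.0416, Gsk3a −0.00089 and Gsk3b −0.0174. Leaving out 1 mouse gave Fzd1 0.0265 (mouse 1) and 0.0393 (mouse 2), in a range down to −0.0693. It gave Lrp6 0.179 (mouse 2), in a range down to −0.107. It gave Gsk3a −0.0546 (mouse 3), in a range up to 0.112, and Gsk3b −0.0351 (mouse 2) and −0.0255 (mouse 3), in a range up to 0.118. The cause was not tested, except that leaving out a mouse leaves fewer samples. Low signal over background limits Vangl2, Tcf7l1, Fzd8 and Vangl1. It also limits Lrp6, Fzd5, Fzd1, Porcn and Dvl3, whose group means lay between −4.56 and −3.47.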
